A study of Mus musculus with 6 samples.

Results

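Transforming growth factor β (TGF-β) signalling was followed through 10 genes: the ligands *Tgfb1*, *Tgfb2* and *Inhba*, the latency and activation proteins *Ltbp1* and *Thbs1*, the receptors *Tgfbr1* and *Tgfbr2*, the feedback inhibitors *Smad7* and *Skil*, and the response gene *Tgfbi*. The rule that picks them uses gene names, matched through the RefSeq accessions of the array probes, and the list was drawn up with earlier results of these data known. All 10 were found among the 21368 genes that the probes could be tied to, on 14 probes and 32 spots per array. RNA came from keratinocytes, the cells that build the epidermis, in primary culture from newborn pups of the strain labelled 129SvEx:C57BL/6. The 3 knockout genotypes were conditional deletions of *Sox4* (Sox4 cKO), of *Sox11* (Sox11 cKO) or of both (dcKO). SOX4 and SOX11 belong to the SoxC transcription factors. Floxed alleles were deleted by *Krt14-Cre*, a Cre recombinase under the promoter of a keratin of the basal layer, and the dcKO cells were homozygous for the floxed alleles of both genes. The floxed stock carried a *Sox12* null allele when it was bred to *Krt14-Cre* mice, which the paper gives as FVB/N. The *Sox12* genotype of the cultured cells is not given in the sources used here. Cells had been started on mitotically arrested J2 mouse fibroblasts and passaged without them before RNA was taken. Each of 6 arrays, 2 per genotype, held knockout RNA in one dye and wild-type control RNA in the other, and the labels call the arrays of a genotype biological replicates. The labels do not say whether the control RNA of an array came from a separate culture, so the p-values measure the spread between these arrays.

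TGF-β ligands are secreted in a latent complex with a propeptide and a latent TGF-β binding protein, and have to be released before they can bind. The active ligand joins a type II receptor to a type I receptor, which phosphorylates the transcription factors SMAD2 and SMAD3. These enter the nucleus with SMAD4 and switch on matrix, cytoskeletal and growth-arrest genes, together with inhibitors that close the pathway again. In epidermis the pathway restrains keratinocyte proliferation and takes part in migration and matrix production at wound edges.

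The targeted genes followed the labels. The log2 fold change of *Sox4* was -2.52 in Sox4 cKO cells and -2.52 in dcKO cells, with adjusted p-values of 0.00398 and 0.00106. That of *Sox11* was -2.98 in Sox11 cKO cells and -3.43 in dcKO cells, with adjusted p-values of 0.0414 and 0.00661. The cells carried keratinocyte RNA: the 8 keratinocyte markers were marked well above background by the scanner software in all channels. Of 10 fibroblast markers, 1 to 3 were above background in a channel, and *Col1a1*, *Col3a1*, *Col6a3*, *Pdgfrb*, *Thy1* and *Lum* were above it in none. The summed fibroblast marker level, on the linear intensity scale, was 305.3 to 409.7 in knockout channels and 303.9 to 633.2 in wild-type channels. The 2 highest wild-type sums, 633.2 and 559.2, were on the Sox4 cKO arrays. These sums include *Vim*, whose own levels are given with the response genes. The summed level of 6 melanocyte markers stood apart in the wild-type channel of Sox11 cKO replicate 2, at 1158 against 430.9 in the knockout channel. A linear sum follows its brightest markers, and 4 of the 6 were above background in each channel of that array. The fitted Sox11 cKO values of the 6 ran from -1.11 to 0.26, with 3 above 0 and 3 below. Of 6 immune markers 2 to 3 were above background in a channel, with *Lyz2* and *Cd207* in none, and of 3 endothelial markers 2 were, with *Cdh5* in none. On Sox11 cKO replicate 2 the summed keratinocyte markers were lower in the knockout by 1.38 on the log2 scale, and between -0.49 and 0.53 on the other 5 arrays.

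The sequences just upstream of the member genes are shown first, since both deleted factors bind DNA through an HMG box. ACAAAG is a core bound by SOX factors and by the related TCF/LEF family. RefSeq promoter sequences of build GRCm38.p6 matched 7 of the 10 members, with 9 start sites. The windows of a single chromosome were left out of this search by gene, though not out of the shares over all windows. *Smad7*, *Skil* and *Thbs1* had no window among those kept. The 250 bases before each start were searched on both strands for ACAAAG, for TGANTCA, the site of AP-1 factors, which often act beside SMADs, and for the SMAD element CAGACA. The core ACAAAG was present in 7 of the 9 windows, against 16.5% of all 32851 windows of that length. CAGACA was present in 3 of the 9, against 17.1% of all windows, and TGANTCA in 0 of the 9, against 6.75%. The windows without ACAAAG were those of *Tgfb1* and *Tgfbr2*. *Ltbp1* and *Tgfbr1* each have a pair of windows from alternative starts, so that the 7 windows with ACAAAG belong to 5 genes. The reverse complements of ACAAAG and CAGACA can share letters, and a match is a run of letters, not a site. The windows of a pair of ligands, a receptor and the response gene are printed, as members that hold the core in different roles, from 5′ to 3′ on the gene's strand and ending at the base before the start. Capitals mark ACAAAG on either strand and, in *Tgfb2*, also CAGACA.
Tgfb2, chr1:186705990-186706239 on the minus strand: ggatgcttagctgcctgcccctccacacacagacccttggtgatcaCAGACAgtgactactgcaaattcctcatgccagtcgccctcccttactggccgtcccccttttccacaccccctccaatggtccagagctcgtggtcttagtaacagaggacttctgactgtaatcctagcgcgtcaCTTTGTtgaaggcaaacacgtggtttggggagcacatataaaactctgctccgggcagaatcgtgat
Inhba, chr13:16011601-16011850 on the plus strand: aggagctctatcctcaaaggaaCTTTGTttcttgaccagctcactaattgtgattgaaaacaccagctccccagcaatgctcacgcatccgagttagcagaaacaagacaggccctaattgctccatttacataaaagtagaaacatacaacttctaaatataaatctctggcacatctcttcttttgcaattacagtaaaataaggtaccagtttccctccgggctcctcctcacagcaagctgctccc
Tgfbr1, chr4:47352972-47353221 on the plus strand: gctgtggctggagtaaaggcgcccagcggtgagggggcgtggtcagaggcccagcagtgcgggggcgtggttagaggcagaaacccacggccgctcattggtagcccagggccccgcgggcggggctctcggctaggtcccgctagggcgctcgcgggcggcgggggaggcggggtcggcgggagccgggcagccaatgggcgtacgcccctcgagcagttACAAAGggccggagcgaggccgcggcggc
Tgfbi, chr13:56609336-56609585 on the plus strand: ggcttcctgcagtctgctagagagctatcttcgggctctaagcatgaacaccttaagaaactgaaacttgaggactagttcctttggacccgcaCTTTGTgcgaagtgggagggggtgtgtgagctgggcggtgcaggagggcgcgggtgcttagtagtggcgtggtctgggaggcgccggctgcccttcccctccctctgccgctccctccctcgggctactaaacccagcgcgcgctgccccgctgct

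In these windows the core began 67 bases before the start in *Tgfb2*, 228 in *Inhba*, 29 in *Tgfbr1* and 156 in *Tgfbi*. None of these 4 genes passed the test in any genotype. Their fitted dcKO changes were below 0, as were those of *Tgfb1* and *Tgfbr2*, whose windows lack the core.

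None of the 10 TGF-β genes passed the test in any genotype. With limma's moderated test and Benjamini-Hochberg adjustment over 55681 probes, 0 members had an adjusted p below 0.05 in Sox4 cKO, Sox11 cKO or dcKO cells. Among all 21368 named genes, each read from its brightest probe, 0.22%, 0.234% and 3.6% passed, so that under 1 of any 10 genes would be called at these rates. At an unadjusted p below 0.05 the members' counts were 1, 1 and 2 of 10, near the shares of 10.5%, 10.7% and 19.8% among all named genes. In bulk RNA, fewer cells of a type and less RNA per cell cannot be told apart.

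The members leaned to one side in dcKO cells without passing. Their median log2 fold change was 0.02 in Sox4 cKO, 0.13 in Sox11 cKO and -0.30 in dcKO cells, beside medians between -0.004 and 0.002 over all probes. In dcKO cells 9 of 10 fitted values were below 0, 5 members were lower than wild type on both arrays and 0 were higher on both. Over all named genes, 31.9% were lower on both dcKO arrays and 28.4% higher on both. The members' brightest probes were above background in every channel, whereas these shares and medians also cover probes that were not. The share of named genes with a fitted value below 0 was not computed, nor any share among expressed genes alone. Whether the lean is particular to these genes was therefore not tested. For Sox4 cKO, 3 members were higher on both arrays and 2 lower, where 25.9% and 25.4% of named genes were. For Sox11 cKO, 4 were higher and 1 lower, where 22.3% and 22.8% of named genes were. With each array's ratios centred on their median in place of loess, which corrects the dye ratio along the intensity range, 5 members passed in dcKO cells, as given with each gene, and 16.7% of all named genes passed in place of 3.6%.

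**Figure D1:**
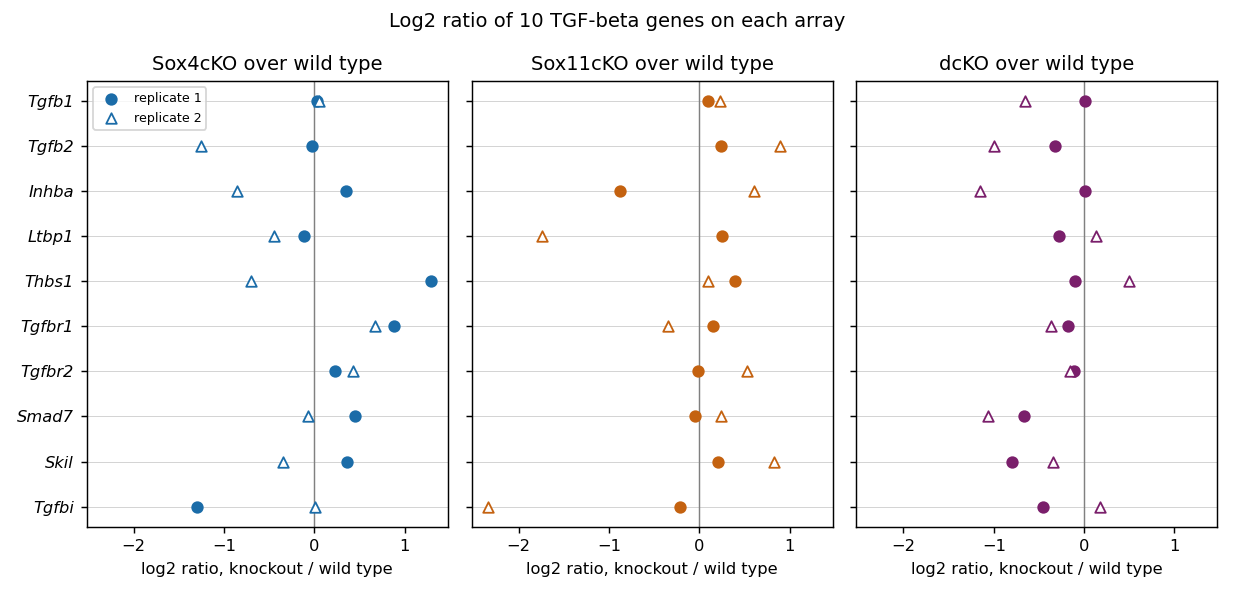
Log2 ratio of knockout over wild type (x axis) for the 10 TGF-β genes on each array, with filled circles for replicate 1 and open triangles for replicate 2. The replicates of *Tgfbi*, *Inhba*, *Thbs1* and *Ltbp1* lie far apart in at least 1 genotype, and *Smad7* and *Skil* lie left of 0 on both dcKO arrays.

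*Tgfb1* encodes the ligand that gave the pathway its name. Its log2 ratio, knockout over wild type, was 0.02 and 0.05 on the Sox4 cKO arrays, 0.09 and 0.23 on the Sox11 cKO arrays, and 0.01 and -0.65 on the dcKO arrays. The ratio thus stayed within 0.23 of 0 on 5 of the 6 arrays, and dcKO replicate 2 stood apart. The probe for *Tgfb1* was printed 10 times on each array, which separates spot noise from the difference between arrays. On dcKO replicate 2 the SD over the 10 spots was 0.06, with all spots between -0.77 and -0.57, and on dcKO replicate 1 the SD was 0.15, with spots between -0.19 and 0.29. The gap between the dcKO arrays was therefore larger than the spot spread of either. The fitted fold change was -0.32 in dcKO cells, with a 95% confidence interval of -0.74 to 0.10 and an adjusted p of 0.566. Under median centring it was -0.83, with an adjusted p of 0.0256.

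*Tgfb2* encodes a second TGF-β ligand, which is made in developing skin and hair follicles. Its log2 ratio was -0.03 and -1.26 in Sox4 cKO cells, 0.24 and 0.90 in Sox11 cKO cells, and -0.32 and -1.0 in dcKO cells. Ratios were below 0 on all arrays that lacked *Sox4* and above 0 on both Sox11 cKO arrays. The fitted values were -0.64, 0.57 and -0.66, and the intervals of all 3 included 0, with adjusted p-values of 0.693, 0.82 and 0.402. A second *Tgfb2* probe gave -0.65, 0.35 and -0.48, but was not above background in 4 of the 12 channels, among them both dcKO knockout channels. The wild-type level, the log2 intensity of the control channel, ran from 5.48 to 7.90 over the 6 arrays, a range wider than any of the fitted changes.

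*Inhba* encodes the activin A subunit, a ligand that uses its own receptors but the same SMAD2 and SMAD3. Its log2 ratio was 0.35 and -0.85 in Sox4 cKO cells, -0.88 and 0.60 in Sox11 cKO cells, and 0.02 and -1.15 in dcKO cells. In every genotype the replicates disagreed by more than 1 log2 unit. The fitted values were -0.25, -0.14 and -0.57, with adjusted p-values of 0.944, 0.993 and 0.705. Without Sox11 cKO replicate 1 the Sox11 cKO value was 1.20, with an adjusted p of 0.0358, and without replicate 2 it was -1.47, with an adjusted p of 0.0427, so that either array alone gave a call and the direction was opposite. Under these settings 4.04% and 0.623% of named genes passed, in place of 0.234%.

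*Ltbp1* encodes a latent TGF-β binding protein that holds the ligand in the matrix. Its log2 ratio was -0.11 and -0.44 in Sox4 cKO cells, 0.25 and -1.74 in Sox11 cKO cells, and -0.28 and 0.13 in dcKO cells. The fitted values were -0.28, -0.74 and -0.07, with adjusted p-values of 0.915, 0.776 and 0.971. Sox11 cKO replicate 2 supplied the low value, and without replicate 1 the Sox11 cKO change was -1.76, with an adjusted p of 0.00839. *Thbs1* encodes thrombospondin-1, a matrix protein that can activate latent TGF-β. Its log2 ratio was 1.29 and -0.70 in Sox4 cKO cells, 0.40 and 0.09 in Sox11 cKO cells, and -0.10 and 0.49 in dcKO cells. The fitted values were 0.30, 0.25 and 0.20, with adjusted p-values of 0.914, 0.987 and 0.917. The wild-type level of *Thbs1* ran from 9.41 to 12.6 log2 units, the widest wild-type range among the 10 genes. The dcKO value of *Thbs1* was -0.32 under median centring.

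*Tgfbr1* encodes the type I receptor kinase. In Sox4 cKO cells its level was 8.61 and 8.32 against 7.73 and 7.65 in the wild-type channels, a log2 ratio of 0.88 and 0.67. Both Sox4 cKO levels lay above both of their controls. In Sox11 cKO cells the ratio was 0.15 and -0.35, and in dcKO cells -0.17 and -0.37, so that the 2 Sox4 cKO ratios were the highest of the 6. The fitted change was 0.77 in Sox4 cKO cells, with a 95% confidence interval of 0.43 to 1.12, an unadjusted p of 0.00103 and an adjusted p of 0.184. It was -0.10 in Sox11 cKO cells and -0.27 in dcKO cells, with adjusted p-values of 0.988 and 0.542. A second probe gave 0.66, -0.08 and 0.00, with Sox4 cKO ratios of 0.13 and 1.19, but was not above background in the wild-type channel of either Sox4 cKO array. For the brightest probe, the wild-type channels of the Sox4 cKO arrays held the 2 lowest wild-type levels, the other 4 being 8.28 to 9.09. Both Sox4 cKO levels therefore lay inside the range of those 4. The adjusted p stayed above 0.05 in every alternative run, from 0.0539 to 1.

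*Tgfbr2* encodes the type II receptor, which binds the ligand. Its log2 ratio was 0.23 and 0.42 in Sox4 cKO cells, -0.01 and 0.53 in Sox11 cKO cells, and -0.11 and -0.16 in dcKO cells. These were small differences on every array. The fitted values were 0.32, 0.26 and -0.13, with adjusted p-values of 0.727, 0.885 and 0.844. The 95% confidence interval in dcKO cells ran from -0.51 to 0.24, and a second probe gave -0.16. Median centring moved the dcKO value to -0.67 for *Tgfbr2*, with an adjusted p of 0.0396, and to -0.76 for *Tgfbr1*, with an adjusted p of 0.036.

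*Smad7* encodes the inhibitory SMAD that is induced by the pathway and blocks the type I receptor. In dcKO cells its level was 6.95 and 6.22, against 7.61 and 7.29 in the wild-type channels, a log2 ratio of -0.66 and -1.07. In Sox4 cKO cells the ratio was 0.45 and -0.07, and in Sox11 cKO cells -0.04 and 0.24. The dcKO ratios were the 2 lowest of the 6, and the others lay within 0.45 of 0. The share of all named genes with such a split was not computed. The level of 6.95 on dcKO replicate 1 lay inside the wild-type range of 6.72 to 7.88, and the 6.22 on replicate 2 lay below it. The fitted dcKO change was -0.87, with a 95% confidence interval of -1.29 to -0.44, an unadjusted p of 0.00174 and an adjusted p of 0.0655. It was 0.19 in Sox4 cKO cells and 0.10 in Sox11 cKO cells, with adjusted p-values of 0.887 and 0.988. The dcKO value was on the edge of the threshold and its side depended on the setting. The adjusted p was 0.0283 in the table of log2 ratios the authors deposited, where 7.05% of all named genes passed in place of 3.6%. It was 0.0398 with the dye effect subtracted before the fit, where 7.78% passed, and 0.00818 under median centring, where 16.7% did. Subtracting the dye effect first leaves its estimation out of the degrees of freedom. With the dcKO arrays fitted alone the adjusted p was 0.041, and the share of named genes was not computed. The adjusted p was 0.13 with a larger background offset and 0.269 with the scanner software's processed signals, where 0.608% and 0% passed. With a single dcKO array the change was -1.01 without replicate 1 and -0.72 without replicate 2.

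*Skil* encodes SnoN, which binds SMADs in the nucleus and represses their targets. In dcKO cells its level was 8.03 and 8.19, against 8.83 and 8.54 in the wild-type channels, a log2 ratio of -0.80 and -0.34. The ratio was 0.36 and -0.35 in Sox4 cKO cells and 0.21 and 0.83 in Sox11 cKO cells. The lower Sox4 cKO ratio reached the higher dcKO ratio, and both Sox11 cKO ratios were above 0. This probe was printed 10 times per array as well. The spots of dcKO replicate 1 lay between -0.996 and -0.56 and those of replicate 2 between -0.48 and -0.15, so that all 20 spots were below 0 and the arrays' spot ranges did not meet. The fitted dcKO change was -0.57, with a 95% confidence interval of -1.12 to -0.02, an unadjusted p of 0.0444 and an adjusted p of 0.363. A second *Skil* probe had dcKO ratios of -0.77 and -0.70 and a fitted change of -0.73, with an adjusted p of 0.0943. Under median centring the change of the first probe was -1.06, with an adjusted p of 0.0347.

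*Tgfbi* encodes an extracellular matrix protein that was named for its induction by TGF-β. Its level was 10.1 and 10.5 in Sox4 cKO cells against 11.4 and 10.5 in wild type, 10.8 and 9.51 in Sox11 cKO cells against 11.0 and 11.9, and 10.3 and 10.1 in dcKO cells against 10.8 and 9.89. The log2 ratio was -1.30 and 0.00 in Sox4 cKO cells, -0.21 and -2.34 in Sox11 cKO cells, and -0.45 and 0.17 in dcKO cells. One array of each single knockout was low and its replicate was nearer 0. The fitted values were -0.65, -1.28 and -0.14, with adjusted p-values of 0.836, 0.66 and 0.961. The Sox11 cKO value, the largest in size among the 10 genes, had a 95% confidence interval of -2.43 to -0.12. Without Sox11 cKO replicate 1 it was -2.82, with an adjusted p of 0.000366, and without replicate 2 it was 0.27, so that replicate 2 decided it. Replicate 2 is the array with the lower keratinocyte marker sum in the knockout and the higher melanocyte marker sum in wild type. The part of these cell types in the values of *Tgfbi* and *Ltbp1* was not tested.

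**Figure D2:**
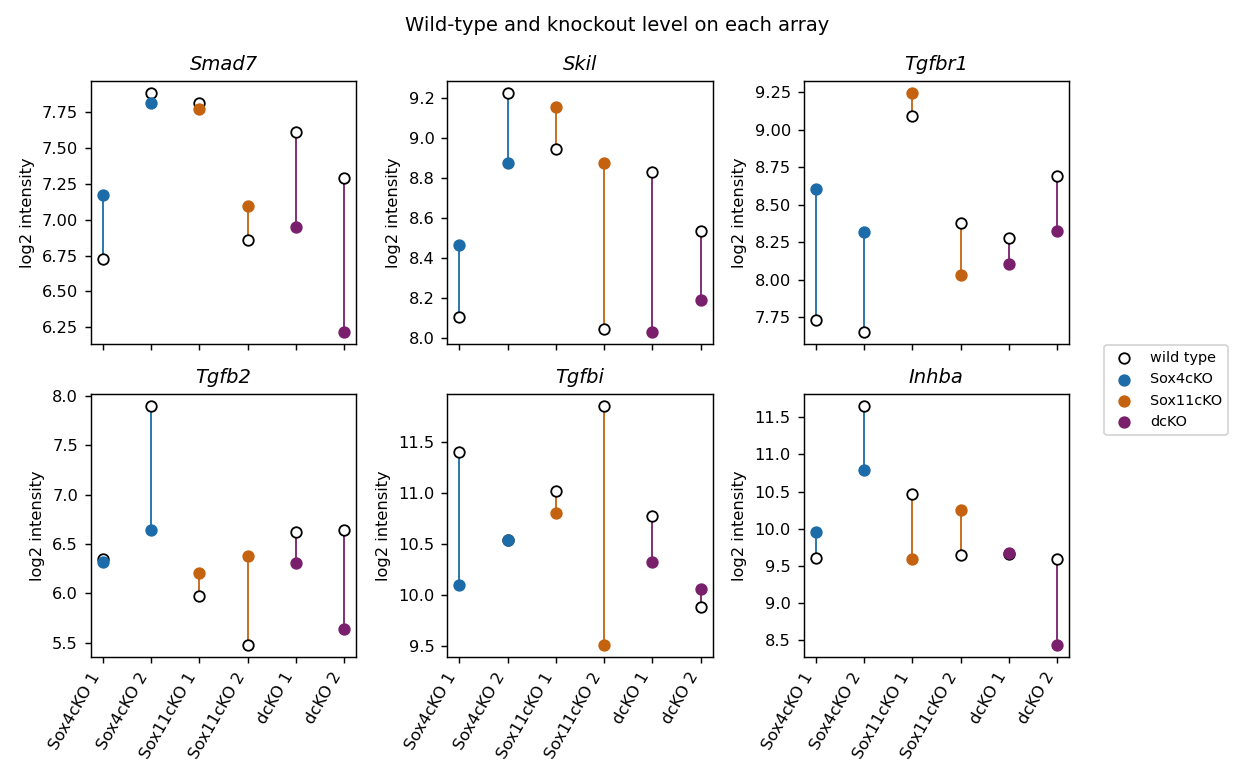
Level of 6 TGF-β genes in the wild-type channel (open circles) and the knockout channel (filled circles) of each array, in log2 intensity units (y axis) by genotype and replicate (x axis), with a line joining the channels of 1 array. The *Smad7* and *Skil* knockout levels lie below wild type on both dcKO arrays, and the *Tgfbr1* knockout levels lie above wild type on both Sox4 cKO arrays.

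Whether the genotypes differed from each other was tested within the same fit. For none of the 10 genes did dcKO differ from Sox4 cKO, dcKO from Sox11 cKO, or Sox4 cKO from Sox11 cKO at an adjusted p below 0.05 by limma, and 2, 3 and 2 members had an unadjusted p below 0.05. Over all named genes, 1.24%, 0.842% and 0.0187% passed in these contrasts, and 17.6%, 16.2% and 9.51% had an unadjusted p below 0.05. The lowest adjusted p belonged to *Tgfbr1*, whose dcKO value was 1.05 log2 units below its Sox4 cKO value, with a 95% confidence interval of -1.54 to -0.56 and an adjusted p of 0.0882. For *Smad7* dcKO minus Sox4 cKO was -1.05 and dcKO minus Sox11 cKO was -0.96, with adjusted p-values of 0.142 and 0.197. *Skil* was 1.09 log2 units lower in dcKO than in Sox11 cKO cells and *Tgfb2* 1.23 lower, with adjusted p-values of 0.273 and 0.322. The departure from additivity, dcKO minus the sum of the single knockouts, passed for 0 members and for 0.585% of named genes, and 4 of the 10 members and 16.2% of named genes had an unadjusted p below 0.05. For *Smad7* that departure was -1.15 and for *Skil* -1.09, with adjusted p-values of 0.214 and 0.384. Without Sox11 cKO replicate 1, which leaves that genotype a single array, 5 members passed for dcKO minus Sox11 cKO, 4 for the departure from additivity and 3 for Sox4 cKO minus Sox11 cKO, while the shares of named genes rose to 6.62%, 6.62% and 2.85%. Without replicate 2 in its place 0 members passed in these 3 contrasts. For dcKO minus Sox4 cKO 2 members passed without either one of the Sox11 cKO arrays, beside 6.42% of named genes.

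**Figure D3:**
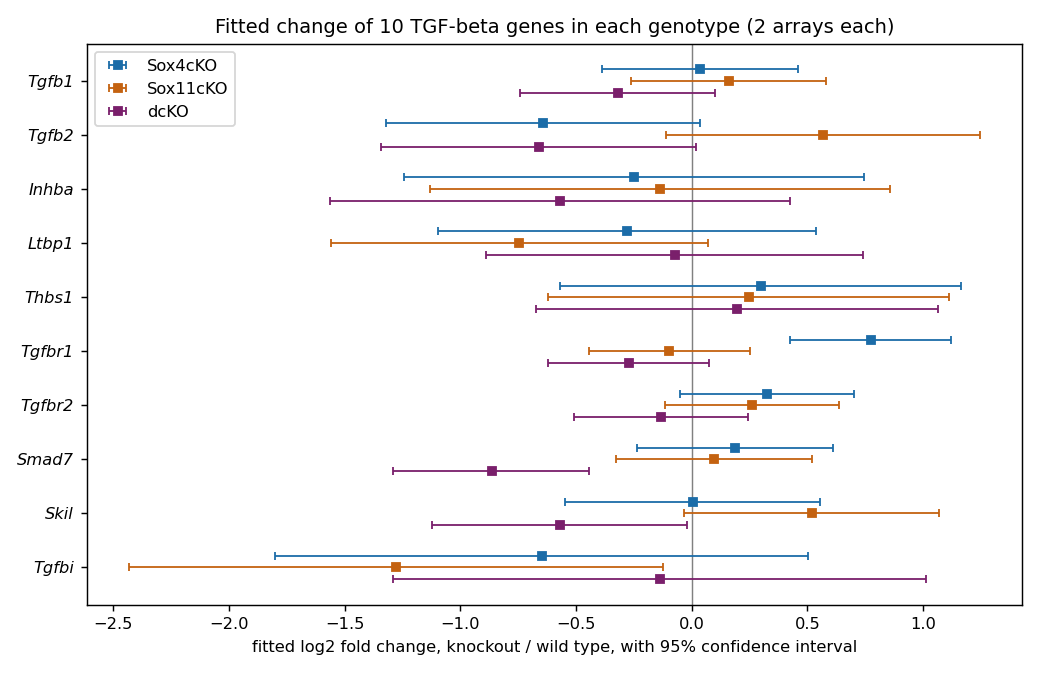
Fitted log2 fold change of knockout over wild type (x axis) for the 10 TGF-β genes in each genotype, squares, with 95% confidence intervals from limma over 6 arrays. The interval lies on one side of 0 for *Tgfbr1* in Sox4 cKO cells, *Tgfbi* in Sox11 cKO cells, and *Smad7* and *Skil* in dcKO cells, before any adjustment for the number of probes.

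A wider list of 60 further genes of the pathway was measured in full. In dcKO cells 2 of the 60 rose and 9 fell at an adjusted p below 0.05, while 1.46% of all named genes rose and 2.13% fell. For Sox4 cKO, 0 rose and 2 fell, where 0.0936% of named genes rose and 0.126% fell. For Sox11 cKO, 0 rose and 1 fell, where 0.0655% of named genes rose and 0.168% fell. The list's median log2 fold change was 0.05, -0.07 and -0.16 in Sox4 cKO, Sox11 cKO and dcKO cells. In dcKO cells 33 of the 60 genes were lower on both arrays and 16 higher on both, where 31.9% and 28.4% of all named genes were. The 13 genes that passed are described by role. Their calls depended on the background correction: with a larger offset 2 of the 11 dcKO calls passed, those of *Acta2* and *Fst*, and with the scanner software's processed signals 0 did, while 0 probes of any kind passed with those signals in any genotype. With a single dcKO array the counts fell to 2 without replicate 1 and 4 without replicate 2, and the share of all named genes passing fell to 0.393% and 0.435%.

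Of 4 further ligand genes, 1 fell in dcKO cells. *Tgfb3*, the third mammalian TGF-β ligand, had a log2 ratio of -1.92 and -1.45 on the dcKO arrays, and its fitted change was -1.69, with an adjusted p of 0.0374. The probe was not well above background in either dcKO knockout channel and was above it in all wild-type channels. The bound taken from the mean levels, 3.22-fold lower, equals the fitted fold change. It makes no allowance for the spread between arrays, so that the fall may be smaller. Without dcKO replicate 1 the change was -0.86, with an adjusted p of 0.345, and without replicate 2 it was -2.52, with an adjusted p of 0.0416. The ratio in Sox4 cKO cells was -0.10 and -1.01, and in Sox11 cKO cells 0.50 and -0.98. *Inhbb*, the activin B subunit, had a dcKO change of 2.47 with an adjusted p of 0.276.

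Of 14 further latency and activation genes, 1 rose and 1 fell in dcKO cells. *Ltbp3*, a latent TGF-β binding protein, fell by 2.43 on the log2 scale, with ratios of -2.29 and -2.58 and an adjusted p of 0.00388. Its dcKO levels of 7.99 and 7.38 lay below all 6 wild-type levels, the lowest of which was 8.86, and a second probe fell by 2.62, with an adjusted p of 0.00339. In the single knockouts *Ltbp3* ratios lay between -0.36 and 0.36. *Itgb6*, the β subunit of the epithelial integrin that activates latent TGF-β, rose by 1.45, with ratios of 1.86 and 1.02 and an adjusted p of 0.0361. Its dcKO levels, 9.85 and 9.80, lay inside the range of the wild-type channels of the single knockout arrays, 9.04 to 10.4, while the dcKO controls were lower, at 7.99 and 8.78. Without dcKO replicate 1 the change was 0.76, with an adjusted p of 0.337, and without replicate 2 it was 2.13, with an adjusted p of 0.0445. A second *Itgb6* probe gave 0.89, with an adjusted p of 0.064.

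Of 7 further receptor genes, 2 fell in dcKO cells. *Acvrl1* encodes a type I receptor known chiefly from endothelium. It had ratios of -1.55 and -1.82 in dcKO cells, 1.33 and 0.98 in Sox4 cKO cells, and 1.05 and 2.28 in Sox11 cKO cells. The direction in dcKO cells was opposite to that on all 4 single knockout arrays. The fitted changes were -1.69, 1.16 and 1.66, of which the first passed, with adjusted p-values of 0.0283, 0.329 and 0.117. The wild-type level of *Acvrl1* ran from 5.59 to 9.49, and the dcKO levels of 7.94 and 6.73 lay inside it. *Acvr2b*, an activin type II receptor, fell by 0.93 in dcKO cells, with ratios of -1.14 and -0.73 and an adjusted p of 0.0454. Its dcKO levels of 8.77 and 9.23 lay inside the wild-type range of 8.42 to 9.96. The dcKO controls, at 9.91 and 9.96, stood above the other wild-type levels. None of the 5 signal transducer genes passed in any genotype. *Smad3* had the largest of their dcKO values, -0.80, with an adjusted p of 0.115.

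Of 12 further negative regulators, 2 fell in dcKO cells and 1 in Sox11 cKO cells. *Fst* encodes follistatin, a secreted protein that binds and blocks activin. Its dcKO levels were 12.7 and 12.1, below all 6 wild-type levels, which ran from 13.4 to 15.0. The ratios were -2.30 and -2.10 and the fitted change was -2.20, with an adjusted p of 0.00151. The single knockouts had ratios of 0.06 and 0.29 for Sox4 cKO and -0.41 and -0.65 for Sox11 cKO. *Tgif1*, a homeodomain corepressor of SMADs, fell by 1.00 in dcKO cells, with ratios of -0.82 and -1.19 and an adjusted p of 0.0224. *Smad6*, the other inhibitory SMAD, fell by 1.73 in Sox11 cKO cells, with ratios of -0.82 and -2.63 and an adjusted p of 0.0327. Its probe was above background in 1 of the 2 Sox11 cKO knockout channels and in no channel of the dcKO arrays, where the fitted value was -0.13.

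Of 18 further response genes, 1 rose and 3 fell in dcKO cells and 2 fell in Sox4 cKO cells. *Fn1*, which encodes the matrix protein fibronectin, had dcKO levels of 5.54 and 7.70 against 9.08 and 12.1 in wild type. The dcKO levels lay below all 6 wild-type levels, the ratios were -3.54 and -4.40, and the fitted fall of -3.97 had an adjusted p of 0.00286. The probe was not above background in the knockout channel of dcKO replicate 1, so that its ratio there is only a bound on the fall. *Fn1* ratios were -0.36 and -2.28 in Sox4 cKO cells and -1.39 and -1.03 in Sox11 cKO cells, with adjusted p-values of 0.376 and 0.386. *Acta2*, smooth muscle actin, fell by 2.73 in dcKO cells and by 1.36 in Sox4 cKO cells, with adjusted p-values of 0.000797 and 0.0325. Its ratios were -2.10 and -3.36 in dcKO cells, -0.77 and -1.94 in Sox4 cKO cells, and 0.02 and -0.94 in Sox11 cKO cells. The wild-type level of *Acta2* ran from 8.35 to 13.3, and in every genotype the array with knockout RNA in Cy3 had the lower ratio. *Angptl4* encodes a secreted inhibitor of lipoprotein lipase that TGF-β can induce. It fell by 3.25 in dcKO cells, with ratios of -2.93 and -3.56 and an adjusted p of 0.00806, while its Sox4 cKO ratios were 3.16 and 1.17. The dcKO levels of 8.60 and 5.81 lay inside the wild-type range of 5.59 to 11.5.

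*Cdkn2b* encodes p15, a cell-cycle inhibitor and a well-known target of TGF-β in keratinocytes. It rose by 2.06 in dcKO cells, with an adjusted p of 0.048. The ratio was 2.06 on both arrays, and 1.26 and 2.86 with the fitted dye effect removed. Without dcKO replicate 1 the change was 3.25, with an adjusted p of 0.0184, and without replicate 2 it was 0.86, with an adjusted p of 0.314. The dcKO controls, at 8.73 and 7.58, were among the 3 lowest of the 6 wild-type levels, which ran up to 10.7. Its second probe rose by 1.16, with an adjusted p of 0.0485. In the single knockouts the ratios were 1.73 and -0.73 for Sox4 cKO and 0.18 and -2.15 for Sox11 cKO. *Vim* encodes vimentin, an intermediate filament protein of mesenchymal cells that also stands among the fibroblast markers. Its ratios in Sox4 cKO cells were -1.63 and -2.90 and the fitted fall was -2.27, with an adjusted p of 0.0341. The probe was above background in both wild-type channels of the Sox4 cKO arrays, at 8.44 and 8.15, and in 1 of the 4 other wild-type channels, where levels were 4.98 to 5.42. It was not above background in the knockout channel of Sox4 cKO replicate 2, so that the ratio of -2.90 is only a bound on the fall. Without Sox4 cKO replicate 1 the change of *Vim* was -2.93 and without replicate 2 it was -1.60, with adjusted p-values of 0.131 and 0.37. The fibroblast marker sums, highest in those 2 wild-type channels, include *Vim* itself and so are no separate measure. The 10 fibroblast markers had a median Sox4 cKO value of -0.05, with 4 above 0 and 6 below. The part of fibroblast RNA in the *Vim* difference was not tested. *Ccn2*, which encodes a matricellular growth factor and is often used to read out TGF-β activity, did not pass in any genotype. Its values were -0.56, -1.51 and 0.54 in Sox4 cKO, Sox11 cKO and dcKO cells, with adjusted p-values of 0.703, 0.134 and 0.463. The collagen genes *Col1a1* and *Col1a2* had values between -0.06 and 0.43, and *Col1a1* was above background in no channel.

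**Figure D4:**
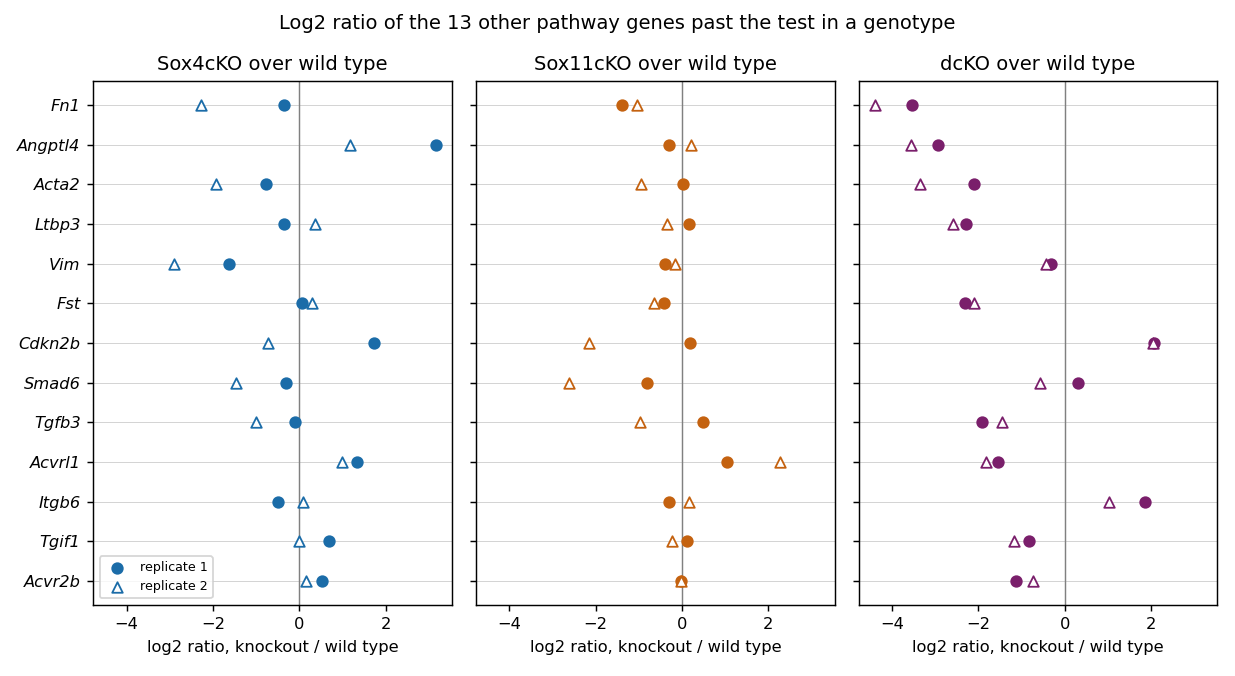
Log2 ratio of knockout over wild type (x axis) on each array for the 13 other pathway genes with an adjusted p below 0.05 in at least 1 genotype, with filled circles for replicate 1 and open triangles for replicate 2. Both dcKO ratios of *Fn1*, *Angptl4*, *Acta2*, *Ltbp3* and *Fst* lie below -2, and those of *Cdkn2b* lie above 2.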

How the data were processed

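Each of 6 2-colour Agilent arrays carried 62976 spots. The files deposited per array hold spot and local background intensity values on a linear scale, made by the authors with Feature Extraction 11.0.1.1, per the file headers. Processed intensity values, from which the software had taken background and dye bias, and their log10 ratio (Cy5 over Cy3, not used) stand beside them, per the file headers. A further table of the authors holds log2 ratios, made by normexp and loess with a colour effect removed by ComBat, which was used only as an alternative. Set against the scanner values it ran as knockout over wild type, with correlations of 0.89 to 0.952 per array.

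Median spot signals were background corrected in R 4.3.3 with limma 3.58.1 (normexp, offset 16) and loess normalised. Control spots had weight 0 and were then left out, outlier spots (194 to 288 per array) were set missing, no spot was saturated, and the spots of a probe were averaged, giving 55681 probes. A log2 ratio is knockout over wild type. A level is the log2 intensity of 1 channel after loess and Aquantile scaling, and levels of different probes are not comparable. Of 29786 probes with an accession, 28331 (95.1%) were named through RefSeq (GRCm38.p6). The fit (lmFit, eBayes) took all 6 arrays with a term per genotype and a dye term, with 2 residual and 5.37 prior degrees of freedom, and p-values were adjusted by Benjamini-Hochberg over all probes. Passing means an adjusted p below 0.05. The code was tested on simulated data. The share of probes well above background was 35.1% to 42.8% in knockout and 37.3% to 45% in wild-type channels, and the number of arrays limits the precision.

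Samples were grouped by their titles. The knockout RNA was in Cy5 on replicate 1 and in Cy3 on replicate 2 of every genotype, so that a block on the replicate number and the dye term are the same. The deviations of equally numbered arrays correlated at 0.316, 0.244 and 0.125 for the 3 pairs of genotypes, and the pairing was taken from the numbers in the titles. All arrays lay on 1 slide. Where 2 genotypes are compared, controls are those of each genotype's own arrays.

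The members and gene lists were chosen with earlier results of these data known. Each gene is given by its brightest probe. All members were named, and of 60 further pathway genes those that passed in a genotype. *Inhbb*, *Smad3*, *Ccn2*, *Col1a1* and *Col1a2* were named after their values were seen. A bound on a fold change uses, for each dim channel, the higher of the lowest level among probes well above background and the probe's own level. Alternatives changed the offset, signals, normalisation, dye handling, filter, probe choice and arrays.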

Additional observations from a re-analysis of the deposited data

Results flagged for a closer look

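The effect of the knockout differed between genotypes, by contrasts within the limma fit, for 0 of the 10 members and for some of the 60 other pathway genes. For dcKO minus Sox4 cKO 6 of the 60 passed, where 1.24% of all named genes did. For dcKO minus Sox11 cKO 5 did, beside 0.842%, and for the departure from additivity 3, beside 0.585%. For Sox4 cKO minus Sox11 cKO 0 passed, beside 0.0187%. In that contrast 15 of the 60 and 9.51% of named genes had an unadjusted p below 0.05. *Angptl4* had the largest such difference in size, with dcKO minus Sox4 cKO of -5.42 and a departure from additivity of -5.37, at adjusted p-values of 0.00999 and 0.0282. Its ratios were above 0 on both Sox4 cKO arrays and below 0 on both dcKO arrays. For *Acvrl1*, dcKO minus Sox4 cKO was -2.84, dcKO minus Sox11 cKO was -3.35 and the departure from additivity was -4.5, with adjusted p-values of 0.0304, 0.0222 and 0.0229. For *Ltbp3*, dcKO minus Sox4 cKO and dcKO minus Sox11 cKO were -2.43 and -2.35, with adjusted p-values of 0.0264 and 0.0325. The values of *Fst* were -2.38 and -1.67, with adjusted p-values of 0.0102 and 0.0324. The values of *Acta2* were -1.37 and -2.27, with adjusted p-values of 0.0421 and 0.0122. *Tgif1* differed from Sox4 cKO by -1.34, with an adjusted p of 0.048, and its dcKO minus Sox11 cKO of -0.94 had an adjusted p of 0.136. *Ltbp2*, a latent TGF-β binding protein family member that passed in no genotype, had dcKO minus Sox11 cKO of -1.48, with an adjusted p of 0.0437, and its knockout channel was not above background on dcKO replicate 2. The departure from additivity of *Smad6* was 2.48, with an adjusted p of 0.0368, over a probe that was above background in no dcKO channel.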

How the results depend on the processing

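None of the 10 members passed in Sox4 cKO cells under any alternative run, and the members' counts moved elsewhere. In dcKO cells 5 members passed under median centring (*Tgfb1*, *Tgfbr1*, *Tgfbr2*, *Smad7* and *Skil*). *Smad7* alone passed with the deposited log2 ratios, with the dye effect subtracted first and with the dcKO arrays fitted alone. Under median centring, with the deposited ratios and with the dye effect subtracted first, 16.7%, 7.05% and 7.78% of named genes passed, in place of 3.6%. For dcKO minus Sox4 cKO 3 members passed under median centring and 1 each with the deposited ratios and with the dye effect subtracted first, where 8.72%, 3.76% and 3.87% of named genes passed in place of 1.24%. For dcKO minus Sox11 cKO 1 passed and for non-additivity 2 passed under median centring, where 5.01% and 4.57% of named genes did. Of the 2 other pathway genes passing in Sox4 cKO cells, 0 passed with an offset of 50, with processed signals or with dim probes left out, the count was 1 with the dye effect subtracted first and 5 with the genotype's own arrays. The 1 of Sox11 cKO cells became 0 with an offset of 50, processed signals, dim probes left out or its own arrays, and 2 with the deposited ratios. The 11 of dcKO cells became 2 with an offset of 50, 0 with processed signals, 25 under median centring and 7 with dim probes left out. With a variance trend, an alternative chosen after seeing the data, 0 members passed in each genotype and 2, 1 and 10 pathway genes did. Processed signals moved the median of all dcKO probes to 0.135. Over all probes, where 98, 69 and 1145 passed in Sox4 cKO, Sox11 cKO and dcKO cells, 0 passed with processed signals in each, 3, 0 and 188 with an offset of 50, 133, 75 and 5483 under median centring, and 202, 185 and 2300 with the deposited ratios. The fitted value of *Thbs1* in dcKO cells turned to -0.32 under median centring and that of *Skil* in Sox4 cKO cells to -0.014 with processed signals. The cause was not tested. Mean spot signals were not used here, so that the alternative planned with them was not run.

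The replicate number pairs the arrays and is the same as the dye. With no replicate block, 0 members passed in each genotype, 0, 0 and 7 pathway genes passed in Sox4 cKO, Sox11 cKO and dcKO cells, and 40, 19 and 554 of all probes did.

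With single arrays left out, which leaves a genotype 1 array whose spread is taken from the others, members passing ranged from 0 to 4 in Sox11 cKO cells, 0 to 1 in dcKO cells, 0 to 2 for dcKO minus Sox4 cKO, 0 to 5 for dcKO minus Sox11 cKO, 0 to 3 for Sox4 cKO minus Sox11 cKO and 0 to 4 for non-additivity. The upper ends for dcKO and for dcKO minus Sox4 cKO came without either one of the Sox11 cKO arrays, and the others without Sox11 cKO replicate 1. The shares of all named genes passing rose in the same runs. Without either one of the Sox11 cKO arrays, 9.06% passed in dcKO cells and 6.42% for dcKO minus Sox4 cKO, in place of 3.6% and 1.24%. The risen shares without Sox11 cKO replicate 1 stand with *Inhba* and with the contrasts between genotypes. Pathway genes passing ranged from 0 to 7 in Sox4 cKO, 0 to 6 in Sox11 cKO and 2 to 19 in dcKO cells. The highest counts came without either one of the Sox11 cKO arrays in Sox4 cKO and dcKO cells and without Sox11 cKO replicate 1 in Sox11 cKO cells, the lowest in dcKO cells without dcKO replicate 1. Without either one of the Sox11 cKO arrays, 1.63% of named genes passed in Sox4 cKO cells, in place of 0.22%. The pathway counts thus moved in the same direction as the shares of all named genes, which in dcKO cells fell without dcKO replicate 1. These member values changed sign with an array left out. In Sox4 cKO cells the ranges were -0.11 to 0.18 for *Tgfb1*, -0.93 to 0.43 for *Inhba*, -0.77 to 1.37 for *Thbs1*, -0.042 to 0.42 for *Smad7*, -0.62 to 0.63 for *Skil* and -1.67 to 0.38 for *Tgfbi*. In Sox11 cKO cells they were -0.067 to 0.39 for *Tgfb1*, -0.24 to 1.38 for *Tgfb2*, -1.47 to 1.20 for *Inhba*, -1.76 to 0.27 for *Ltbp1*, -0.24 to 0.054 for *Tgfbr1*, -0.28 to 0.47 for *Smad7* and -2.82 to 0.27 for *Tgfbi*. In dcKO cells they were -0.69 to 0.051 for *Tgfb1*, -1.22 to 0.083 for *Inhba*, -0.86 to 0.71 for *Ltbp1*, -0.68 to 1.07 for *Thbs1*, -0.34 to 0.076 for *Tgfbr2* and -0.66 to 0.38 for *Tgfbi*.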

Other observations

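*Tgfbi* had the largest fitted change of the members in size, and the genes whose pattern over the arrays was most like it were sought among 10733 genes above background in both channels of at least 5 arrays. Over the 6 log2 ratios with the dye effect removed, Pearson's r with *Tgfbi* was 0.997 for *Jsrp1* and 0.996 for *Mrpl30*, and it rounded to 1 for *AI987944*. The ratios of these genes were small beside those of *Tgfbi*: on Sox11 cKO replicate 2, where *Tgfbi* was at -2.31 on this scale, they were -0.25, -0.43 and -0.44. The likeness is over 6 points that share their arrays and rests mostly on Sox4 cKO replicate 1 and Sox11 cKO replicate 2, the lowest ratios of all 4 genes.

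Among the other pathway genes, the upstream windows were also searched, with the same chromosome left out. The core ACAAAG was present in 8 of 52 windows of 41 genes, against 16.5% of all windows, and CAGACA in 11 of 52, against 17.1%.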
